A study of Mus musculus with 5 samples.

Results

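Trp63 and 9 other genes of the surface ectoderm were followed in pharyngeal arch tissue of wild-type mouse embryos at E10.5. The genes were Trp63, Perp, Dsp, Pkp3, Krt5, Krt14, Krt15, Krt17, Sfn and Tfap2c, and every probe set annotated to exactly 1 of them was kept, which gave 20 of the 22690 probe sets on the array and 10 of the 12393 genes it measures. There was 1 group of 5 samples, each a separate piece of tissue that held the arches together with the second heart field, the pool of heart progenitors beneath them. The embryos came from a 129P2/OlaHsd line crossed back to C57BL/6 over 2 generations, and no allele or treatment set any sample apart. From each sample 10 ng of total RNA was amplified, labelled with biotin and hybridised to an Affymetrix Mouse Genome 430A array. Nothing in the labels says whether the pieces came from separate litters, so every spread and p-value below measures the difference between these 5 samples, which may be in part technical.

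The pharyngeal arches are covered outside by surface ectoderm, which later forms epidermis, oral lining and tooth and placode epithelium. Trp63 encodes p63, a transcription factor of the p53 family that commits the single-layered ectoderm to a stratified fate; mice without it lack a stratified epidermis. As this fate is taken up, the keratins of simple epithelium, Krt8 and Krt18, give way to Krt5 and Krt14 in basal cells, and desmosomes come to bind the keratin filaments of neighbouring cells.

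Of the 10 genes, 4 were above background: Trp63 itself, the transcription factor gene Tfap2c, and the desmosomal genes Perp and Dsp. The 4 keratin genes, Pkp3 and Sfn were not. A probe set was called above background where its log2 signal exceeded the level that probe sets of olfactory receptors, hair proteins, milk proteins and other families foreign to the arches reached in the same array, their 95th percentile (limma, one-sided, Benjamini-Hochberg adjusted p below 0.05 over 20380 probe sets). This level was a signal of 16.8, 16.4, 19.1, 22.9 and 23.97 in replicates 1 to 5. By the same rule 50.7% of all probe sets and 53.7% of all genes were called, so 5 of 20 member probe sets and 4 of 10 member genes were not more than the array as a whole gave. The median excess over the level was -1.48 log2 units over the 20 member probe sets and 0.57 over all probe sets. Poor binding by the probes also gives a low signal, so a missing call does not show that a transcript was absent. The samples were whole tissue, so no member signal, that of the desmosomal genes included, can be assigned to the ectoderm alone. Fewer ectoderm cells and less RNA per ectoderm cell cannot be told apart in them either.

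Tissue markers were read for the same arrays. All 13 measured mesenchyme genes and 9 of 12 neural crest genes were above background, as were 6 of 14 pharyngeal endoderm genes, 12 of 13 neuronal genes and 5 of 10 erythroid genes. Replicate 4 was low in some of these lists: the mean of the called erythroid genes lay at -0.64 log2 units, and that of the called neuronal genes at -0.52, relative to the average of the 5 samples. The erythroid mean was also far from that average in replicate 5, at 0.56. Without replicate 4 the number of called member genes was again 4, and 6 member probe sets passed where 5 passed with it.

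**Figure D1:**
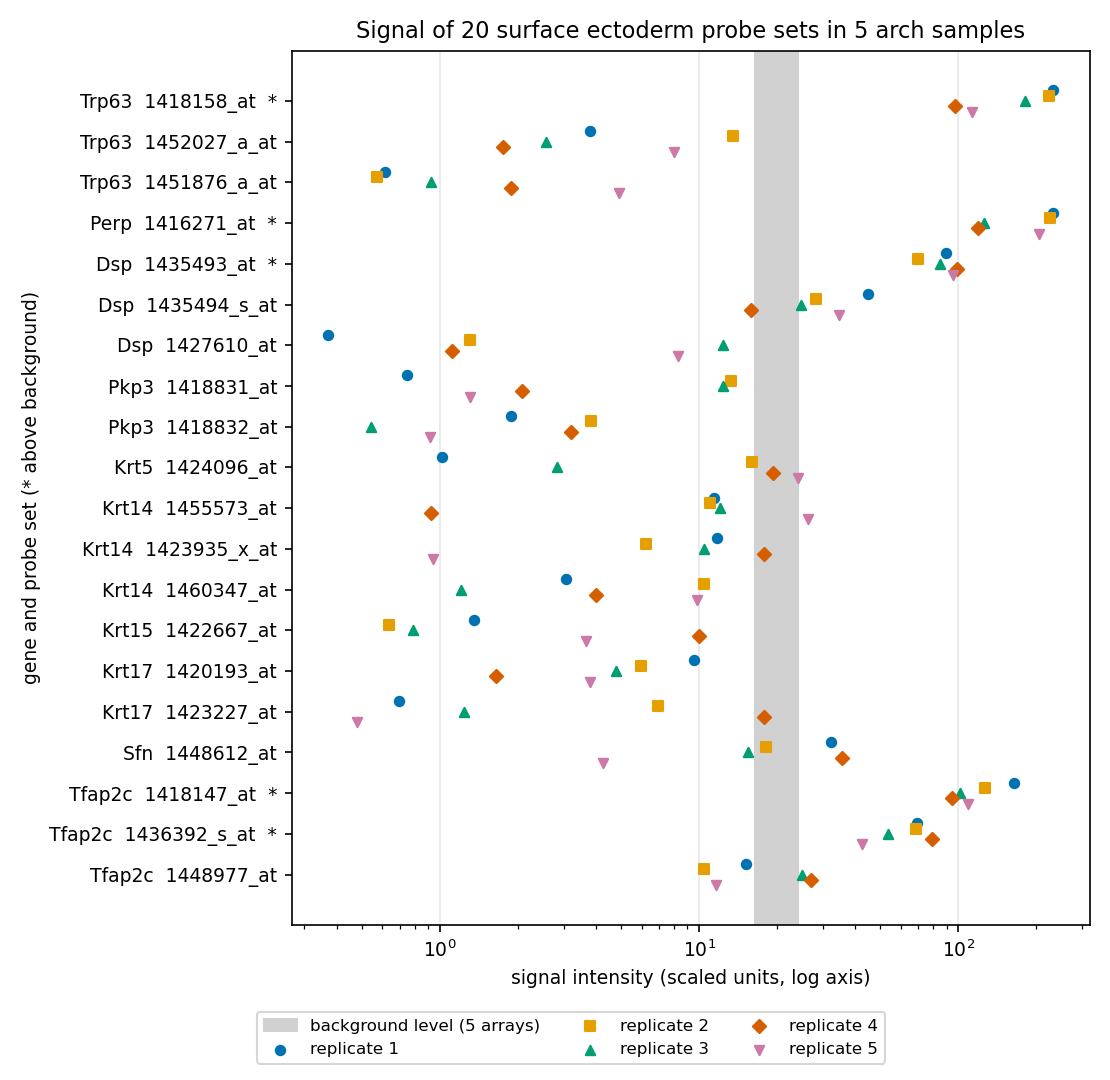
Signal of each of the 20 member probe sets (rows) in the 5 samples (points), on a log axis, with the range of the background level over the 5 arrays as a grey band and an asterisk on probe sets above background. The called probe sets of Trp63, Perp, Dsp and Tfap2c lie to the right of the band in all 5 samples, while most keratin and Pkp3 points lie to the left of it.

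The promoter letters of Dsp, Krt5 and Sfn are shown first, since they set a gene called above background beside 2 genes that were not, a basal keratin and a 14-3-3 protein. They come from RefSeq (GRCm38.p6), read 5′ to 3′ on the strand of the gene, and cover the 250 bases before the transcription start. Of the 10 members 4 matched an entry, and the entry of Krt14 was not printed because its start lies 1480 bases inside the gene. Capitals mark matches on either strand to the AP-2 site GCCNNNGGC, the half-site of the p53 family, or the TATA box TATAAA.
Dsp, chr13:38151044-38151293, plus strand: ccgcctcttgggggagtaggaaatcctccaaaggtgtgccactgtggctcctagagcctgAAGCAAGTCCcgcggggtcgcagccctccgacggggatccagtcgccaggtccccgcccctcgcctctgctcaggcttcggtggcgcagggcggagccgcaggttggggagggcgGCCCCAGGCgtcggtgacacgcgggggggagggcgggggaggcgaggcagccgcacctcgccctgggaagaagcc
Krt5, chr15:101712906-101713155, minus strand: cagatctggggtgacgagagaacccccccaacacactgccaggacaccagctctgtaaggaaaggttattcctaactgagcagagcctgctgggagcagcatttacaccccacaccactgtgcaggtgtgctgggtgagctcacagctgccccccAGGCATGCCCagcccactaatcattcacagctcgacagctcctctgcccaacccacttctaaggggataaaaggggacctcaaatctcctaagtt
Sfn, chr4:133602169-133602418, minus strand: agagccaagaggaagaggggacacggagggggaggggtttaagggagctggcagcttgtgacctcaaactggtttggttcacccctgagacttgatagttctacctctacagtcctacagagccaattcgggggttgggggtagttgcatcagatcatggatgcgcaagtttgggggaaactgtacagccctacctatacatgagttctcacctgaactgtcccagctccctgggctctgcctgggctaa
The Dsp window held 1 AP-2 match, whose first base lies 75 bases before the start, and 1 p53-family half-site, whose first base lies 190 bases before it. The Krt5 window held 1 half-site, 95 bases before the start by the same count. The Sfn window held none of the 3 motifs, and no printed window held TATAAA. Among 32851 promoter windows of the same length, 13.7% held the AP-2 site, 7.13% the half-site and 12.4% the TATA box. The G and C content was 72.4% for Dsp, 56.0% for Krt5 and 54.4% for Sfn, with a median of 52.4% over all windows. A match is a stretch of letters and not a measured binding site.

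Trp63 was measured by 3 probe sets, and 1 of them was far above background. Probe set 1418158_at of Trp63 gave signals of 233, 224, 181, 96.9 and 113 in replicates 1 to 5. Every sample lay above its background level, with replicates 1 and 2 close together at the top and replicate 4 lowest. The mean was 169.5 ± 62.4 (SD, n = 5), an excess of 3.03 ± 0.23 log2 units (SE; limma, adjusted p = 7.87e-11). Its other probe sets, 1452027_a_at and 1451876_a_at, gave signals from 1.76 to 13.5 and from 0.573 to 4.89, below the level in all 5 samples. The ending _a_at marks probe sets designed to several transcripts of 1 gene. Trp63 is transcribed from alternative starts with alternative ends, and the annotation used here does not say which of them each probe set reads.

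Trp73, the p73 gene and the one other member of the p53 family measured, had its brighter probe set at 2.22, 8.14, 2.04, 18.2 and 6.44, below the level in every sample (excess -1.88, limma adjusted p = 1). Trp53 was not analysed here.

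Tfap2c encodes AP-2 gamma, a transcription factor of the surface ectoderm that is also made in trophoblast, germ cells and neural crest. Probe set 1418147_at of Tfap2c gave 164, 126, 101, 94.8 and 109 in replicates 1 to 5, and its probe set 1436392_s_at gave 68.96, 68.6, 53.4, 78.9 and 42.5. All 10 values lay above the level of their array. The excess was 2.57 ± 0.19 log2 units for the first (adjusted p = 5.45e-12) and 1.64 ± 0.21 for the second (adjusted p = 6.00e-08, both limma, n = 5). The pair put the samples in different orders: replicate 4 was lowest on the first and highest on the second. The ending _s_at marks a probe set that can bind related transcripts. The remaining probe set, 1448977_at, ran from 10.4 to 27.0 and exceeded the level in 2 samples (excess -0.24, adjusted p = 1).

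Markers of other tissues that make Tfap2c were counted, and their part in its signal was not tested. Of 12 neural crest genes 9 were above background, with a median excess of 2.02 log2 units over their brightest probe sets. Of 9 measured trophoblast genes 0 were above background by limma, and 0 at an unadjusted p below 0.05, with a median excess of -1.48 log2 units over their brightest probe sets against 0.84 over all genes. Of 9 germ cell genes 1 was called, the interferon-induced membrane protein gene Ifitm3 (73.5 ± 14.7). Within the AP-2 family, Tfap2a (104.6 ± 32.5, excess 2.36) and Tfap2b (64.8 ± 21.6, excess 1.64) were called beside Tfap2c, and Tfap2d was not (17.0 ± 7.25). Tfap2a and Tfap2b are among the neural crest genes counted above, which does not exclude surface ectoderm as a source of their signal. Tfap2a ran from 71.2 in replicate 4 to 145 in replicate 1, and Tfap2b from 31.1 in replicate 4 to 88.7 in replicate 1.

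**Figure D2:**
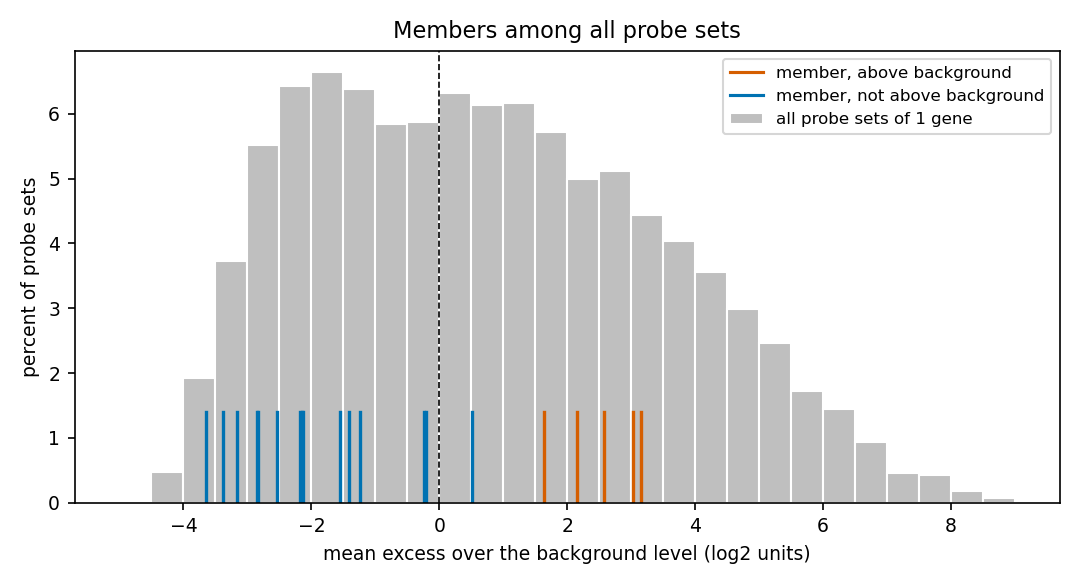
Percent of probe sets (vertical axis) by mean excess over the background level in log2 units (horizontal axis) for all 20380 probe sets annotated to 1 gene (grey bars), with the 20 member probe sets as vertical ticks whose height has no meaning. The 5 called member probe sets lie between 1.64 and 3.15, and 14 of the other 15 lie below 0.

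Perp encodes a membrane protein of desmosomes that is a known target of p63. Its single probe set, 1416271_at of Perp, gave 232, 227, 126, 119 and 204 in replicates 1 to 5. Replicates 3 and 4 were low and the other samples high, and all 5 lay above the level. The mean was 181 ± 55.1 and the excess 3.15 ± 0.20 log2 units (SE, n = 5; limma, adjusted p = 1.78e-13).

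Dsp encodes desmoplakin, which ties the desmosome to keratin filaments. Probe set 1435493_at of Dsp gave 89.5, 69.7, 85.3, 98.96 and 95.7, the narrowest spread among the called members. The mean was 87.8 ± 11.5 and the excess 2.15 ± 0.18 log2 units (adjusted p = 2.52e-11, limma, n = 5). The call held with the 99th percentile of the families as the level (excess 1.59, limma, adjusted p = 2.25e-09). It failed against a stricter level, set by adding casein kinase and interferon receptor genes, which are widely transcribed. There the excess of this probe set was 0.31 (limma, adjusted p = 0.128). Trp63, Perp and Tfap2c still passed there, so 3 member genes and 3 member probe sets were called, beside 34.3% of all genes and 30.3% of all probe sets. Probe set 1435494_s_at of Dsp lay at 44.9, 28.2, 24.7, 15.8 and 34.7, above the level in 4 samples and below it in replicate 4. It missed the threshold with all samples (excess 0.51, adjusted p = 0.0593) and passed without replicate 4 (excess 0.78, adjusted p = 0.00461, limma). The remaining probe set, 1427610_at, ran from 0.370 to 12.3.

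Pkp3 encodes plakophilin 3, an armadillo-repeat protein of the desmosomal plaque. Its probe sets ran from 0.745 to 13.3 and from 0.542 to 3.84, below the level in all 5 samples (excess -2.53 and -3.39). Of the 13 desmosomal genes measured, 7 were above background (53.8%, against 53.7% of all genes). Apart from Perp and Dsp these were the plakophilin genes Pkp4 (1219 ± 153) and Pkp2 (38.7 ± 2.86), Dsg2 (93.9 ± 17.8) and Dsc2 (37.2 ± 6.76), which encode desmosomal cadherins, and Jup, plakoglobin (39.6 ± 16.2). Jup was below the level in replicate 4 (13.4). Beside Pkp3 the uncalled genes of this list were Pkp1, Dsc1, Dsc3, Ppl and Evpl, with mean signals from 3.24 to 9.14. These 5 were named after their values were seen.

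Krt5 and Krt14 form the keratin pair of basal epidermal cells, Krt15 is a further basal type I keratin, and Krt17 is a type I keratin of periderm and skin appendages. Krt14, Krt15 and Krt17 lie close together on chromosome 11. None of their 7 probe sets was called. Of the 35 single values, from 0.478 to 26.3 with a median of 5.96, 1 exceeded the level of its array.

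Krt5 gave 1.01, 15.97, 2.83, 19.3 and 23.96 in replicates 1 to 5. All 5 values were below the level, the one in replicate 5 barely, and the mean excess was -1.42 ± 0.63 log2 units (SE, n = 5). Krt14 on its brightest probe set, 1455573_at, gave 11.4, 11.0, 12.02, 0.926 and 26.3. This last value, in replicate 5, was the one above the level. The remaining Krt14 probe sets ran from 0.939 to 17.7 and from 1.20 to 10.4. Krt15 ran from 0.638 to 9.98, and the Krt17 probe sets from 1.64 to 9.52 and from 0.478 to 17.7. A probe set shared by Krt14 and Krt17, outside the rule, ran from 0.935 to 14.4. At such signals the probe sets of 1 gene did not rank the samples alike: replicate 4 was lowest on 1 Krt14 probe set and highest on another.

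Krt18, Krt8 and Krt7, keratins of simple epithelium, gave calls where the basal keratins did not. Krt18 was at 192, 218, 182, 232 and 333 (excess 3.53, adjusted p = 3.44e-16), Krt8 at 89.2, 69.8, 40.6, 74.1 and 70.6 (excess 1.77, adjusted p = 1.34e-08), and Krt7 averaged 37.3 ± 7.99 (excess 0.90, adjusted p = 0.000528; all limma, n = 5). Krt19, another keratin of simple epithelium, exceeded the level in 4 of 5 samples without passing (27.7 ± 7.97, adjusted p = 0.0785). Of 19 keratin genes measured, 4 were called in all, and the remaining call was Krt10 (35.4 ± 3.77), a keratin of suprabasal epidermis. Against the stricter level 1 of the 19 was called. The other keratins, Krt1, Krt2, Krt4, Krt6a, Krt6b, Krt12, Krt13, Krt16, Krt20 and Krt23, had mean signals from 0.890 to 12.3. These are calls on each probe set against background, and differences between keratins were not tested.

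Sfn encodes stratifin, the 14-3-3 protein of stratified epithelium. Its probe set gave 32.3, 18.2, 15.5, 35.4 and 4.26 in replicates 1 to 5, above the level in replicates 1, 2 and 4. The mean excess was -0.22 ± 0.40 log2 units, so the samples straddled the level and the call failed (limma, adjusted p = 1). Without replicate 5 the excess was 0.35, again with no call (limma, adjusted p = 0.210). The other 6 genes of the 14-3-3 family, which are widely transcribed, were all called, from Ywhah (1080 ± 130.3) to Ywhae (9307 ± 1545).

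**Figure D3:**
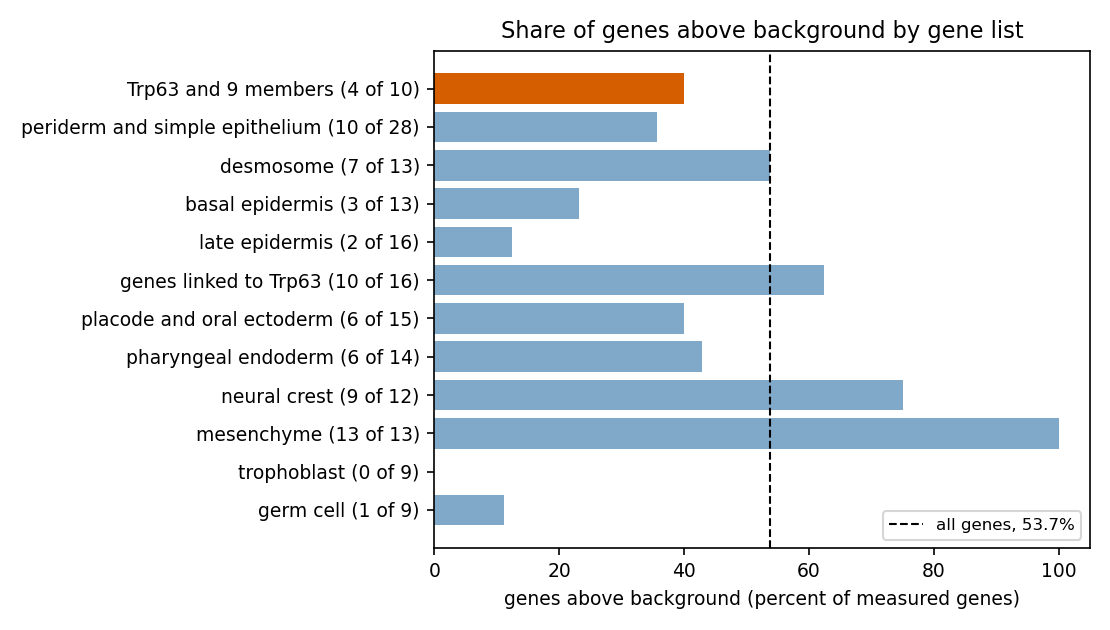
Percent of the measured genes of each list that were above background (bars), for the 10 members (top bar) and 11 other lists, with the dashed line at 53.7% for all genes and counts in the labels. The members stand at 4 of 10, late epidermis at 2 of 16 and trophoblast at 0 of 9, and mesenchyme at 13 of 13.

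The lists around the members were described by their counts alone. Against the stricter level, where 34.3% of all genes were called, the counts below became 3 for basal and 0 for late epidermis. They became 6 for periderm and simple epithelium, 2 for endoderm, 5 for genes tied to Trp63 and 4 for placodes and oral ectoderm. The desmosomal, neural crest and AP-2 lists fell to 3, 6 and 2 calls, and the germ cell list to 0. Of 13 measured genes of basal epidermis 3 were above background: Trp63, the integrin gene Itga6 (370.4 ± 76.7) and Dst (888 ± 83.6), which encodes dystonin. Itga6 and an epithelial form of dystonin are parts of the hemidesmosome, which anchors basal cells, though both genes are also transcribed in other tissues. The uncalled genes other than keratins were Itgb4, the partner of Itga6 in that structure, Col17a1, Lama3, Lamb3, Bcam, Lama5 and Itga3, with mean signals from 5.26 for Itgb4 to 14.6 for Itga3. Of 16 late epidermal genes 2 were called, Krt10 and the zinc finger gene Klf4 (30.5 ± 6.67). The other 14 had mean signals from 0.840 for Casp14 to 16.5 for Tgm3, among them the cornified envelope genes Lor (8.08), Ivl (6.62) and Flg (1.87). The median excess of the brightest probe sets was -1.35 log2 units for basal and -1.84 for late epidermis.

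Of 28 genes of periderm and simple epithelium 10 were above background, with a median excess of -0.55. Besides Krt8, Krt18 and Krt7 these were Esrp2 (668 ± 86.3) and Esrp1 (363 ± 149), which encode epithelial splicing factors, the junction genes Cldn6 (213 ± 51.0), Epcam (129 ± 26.9) and Cdh1, E-cadherin (63.4 ± 13.5), the transcription factor gene Grhl2 (164 ± 22.4) and Spint1, a protease inhibitor (29.6 ± 3.70). Several of these genes are also made in endoderm, whose own list had 6 calls: Pax1 (114 ± 55.9), Foxa1 (47.1 ± 7.10), Hhex (46.8 ± 12.3), Sox17 (35.8 ± 4.25), Foxa2 (28.9 ± 7.32) and Cldn6.

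Genes tied to Trp63 in the literature of skin and limb, as regulators, targets or partners, gave 10 calls among 16 measured, with a median excess of 0.87 against 0.84 over all genes. They were Skil (1224 ± 162), Fgfr2 (840.4 ± 161), Satb1 (481 ± 66.7), Ikbkb (464 ± 80.1), Notch1 (363 ± 122.7), Dlx3 (60.1 ± 16.05), Ripk4 (59.5 ± 11.5), the Notch ligand gene Jag2 (38.1 ± 9.93), Cdkn1a (37.6 ± 14.2) and Runx1 (32.2 ± 7.84). Many of them are active in mesenchyme or neural tissue as well. Of 15 genes of placodes and oral ectoderm 6 were called: Lhx8 (323 ± 25.9), Sox2 (266 ± 84.3), Dlx2 (247 ± 93.0), Pax6 (138 ± 15.1), Six4 (80.7 ± 4.39) and Bmp4 (39.2 ± 6.83). The median excess of this list was -0.71.

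The last comparison was of the samples with each other. Over the 5 samples the SD of log2 signal was 0.58 for Trp63 and 0.47 for Perp. It was 0.31 and 0.36 for the called probe sets of Tfap2c and 0.20 for that of Dsp. On Dsp probe set 1435494_s_at, which was not called, it was 0.56. The median over the 10340 called probe sets was 0.30, and 93.0% of them varied less than Trp63, 83.9% less than Perp and 20.7% less than Dsp. Each variance was tested against that of probe sets of like signal (F test against the trend fitted by limma, over 11659 probe sets whose mean lay above the level). Of 6 member probe sets in this test 0 passed at an adjusted p below 0.05, and 1, that of Trp63, had an unadjusted p below 0.05. Its variance was 3.49 times the trend (limma, adjusted p = 0.940). In simulated data 200 probe sets were given an added SD of 8 times that of the rest. The test recovered 50.25% of those whose simulated mean lay above the level. Unlike on the arrays, nearly all simulated probe sets lay below the level unless set above it, and all shared 1 SD before the addition. The share recovered therefore does not give the power of the test on these arrays. Smaller spreads were not simulated, so a larger spread among the members can have been missed. Among all probe sets 0.112% passed after adjustment and 5.26% were below 0.05 before it.

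The called members did not move as a block. Relative to the mean of the 5 samples, Trp63 stood at -0.72 log2 units in replicate 4 and Perp at -0.55. Tfap2c stood at -0.30 on its first and 0.37 on its second probe set, and Dsp at 0.18 on its called probe set. The probe sets of Dsp differed there, since 1435494_s_at, which was not called, stood at -0.83. In replicate 5 Trp63 was again low (-0.50) and Perp was not (0.23). The periderm and simple epithelium genes were mixed in replicate 4: of the 10 called genes 7 stood above their own mean, with Esrp1 at 0.86 and Cldn6 at 0.52, and 3 stood below it, Cdh1 at -0.22, Spint1 at -0.18 and Krt7 at -0.05. In replicate 3, 9 of the 10 were below their mean. The called neural crest genes averaged -0.28 log2 units in replicate 4 and -0.15 in replicate 5, the samples in which Trp63 was low. Other lists were below their mean in both: the AP-2 family (-0.59 and -0.06), mesenchyme (-0.15 and -0.05) and endoderm (-0.09 and -0.03). So were the genes tied to Trp63 (-0.07 and -0.06) and basal epidermis, which includes Trp63 (-0.08 and -0.20). The called neuronal and erythroid genes were low in replicate 4 but stood at 0.11 and 0.56 in replicate 5. The part that the shifts of all these lists have in the low Trp63 values was not tested.

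**Figure D4:**
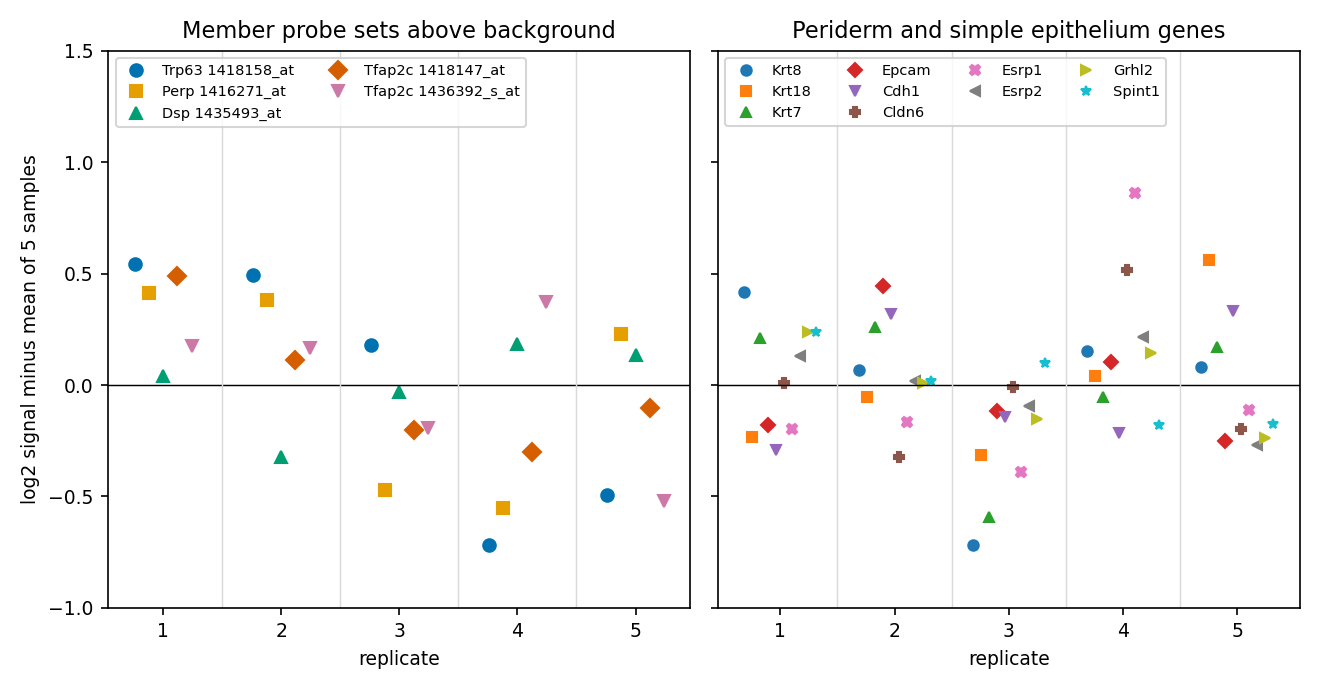
Log2 signal minus the mean of the 5 samples (vertical axis) in replicates 1 to 5 (horizontal axis) for the 5 called member probe sets (left) and the 10 called genes of periderm and simple epithelium (right), with points offset sideways for legibility. Trp63 is lowest in replicate 4 at -0.72 and Dsp stands at 0.18 there, while Esrp1 is highest in replicate 4.

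Genes whose profile over the 5 samples was most like that of Trp63 were found by the root mean square difference of centred log2 signals, over the brightest probe set of 7384 genes with a mean above the level. The 10 closest were Rab21 (0.071 log2 units), Septin11, Bsdc1, Lbx1, Parg, Dmac2l, Sox9, Golga4, Etl4 and Nab1 (0.13), against a median of 0.58 over all 7384. None of the 10 belongs to the members or to the epithelial lists, and Sox9 belongs to the neural crest list. All these lists hold few of the 7384 genes compared, so these counts do not assign the profile to a tissue. Sox9 gave 523, 481, 410, 246 and 302 in replicates 1 to 5. Among the other called members, Tfap2c ranked at place 592 with a difference of 0.35, Perp at 1535 with 0.45 and Dsp at 5006 with 0.66. The choice of these 10 rests on single samples: without replicate 4 none of the 10 stayed among the 10 closest (0), and leaving out any other single sample kept 3 or 4.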

How the data were processed

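The authors deposited 1 linear signal intensity per probe set and array. They used GCOS, per the submitters' processing notes; its version and settings are not given in the sources used here. After trimming 2% of values at each end, the mean signal was 150.1 on every array, and array medians ran from 28.1 to 32.2. Detection calls and probe-level data were not used here, and the number of arrays limits the precision.

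Of 22690 probe sets 64 were controls, 20380 had 1 gene, 691 several and 1555 none. Entrez identifiers gave current RefSeq symbols for 20351. Signals below 1 were set to 1 before taking log2. The background families held 270 probe sets of 207 genes. Their name patterns were corrected after the signals of the background probe sets had been seen and before any member was tested: as first written they also took in Ighmbp2, Klk10 and Klk11, which do not belong to the families (275 probe sets of 210 genes). The stricter level adds 28 probe sets of 9 casein kinase and interferon receptor genes, which are widely transcribed. Intercept fits used limma 3.58.1 in R 4.3.3 (lmFit, eBayes with trend and robust options), with the level taken as known. Both tests were tested on simulated data, where the variance test missed many of the probe sets given a raised spread.

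Members and gene lists were chosen with earlier results of these data known. By the naming rule the text could name every member, every measured gene of the p53, AP-2 and keratin lists, the called genes of other lists (and uncalled ones where 5 or fewer were called), and the 10 most like Trp63. The mesenchyme, neural crest, neuronal, erythroid and 14-3-3 lists are given by counts with few or no names, and 5 uncalled desmosomal genes were named outside the rule. For a gene with several probe sets, the brightest called one is given, or the brightest where none was called. Alternatives covered the level, scaling, floor, filter, moderation, probe set type and each left-out replicate.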

Additional observations from a re-analysis of the deposited data

Results flagged for a closer look

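For 119 values, the 20 member probe sets and 99 other listed genes, the log2 signals of the 5 samples were searched for 1 sample far from the rest (Dixon's ratio above its critical value). By chance about 1 in 20 would show this, and 8 did (6.72%). Among the members there was 1, the brightest Krt14 probe set, with 0.926 in replicate 4 and 11.0 to 26.3 in the others, of which the value in replicate 5 alone was above the background level. In replicate 4 Esrp1 was high at 627, against 263 to 319 in the others, and Nefm was low at 97.1, against 190 to 217. In replicate 2 Pax6 was low at 111 (143 to 146 in the others) and Six4 at 73.1 (81.2 to 83.7). In replicate 3 Jag2 was low at 21.5 (37.0 to 45.7), Pdgfrb was low at 54.0 (84.5 or more in the others) and Ednrb was high at 154 (86.5 to 101).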

How the results depend on the processing

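Across 15 alternative settings the number of called member genes was 4, except for 3 against the stricter background level. There 3 member probe sets were called in place of 5, and 6183 probe sets in all in place of 10340; the second Tfap2c probe set fell below the level (-0.20), and Dsp was not called. With the background patterns as first written, an alternative added after seeing the data, 5 member probe sets, 4 member genes and 10329 probe sets in all were called, and no member call changed. With plain probe sets alone, 6646 of 14098 were called. Of 287 comparisons of a member probe set with its call as reported, 281 left the call as it was, 4 gained one (each time Dsp probe set 1435494_s_at) and 2 lost it, 1 probe set each of Dsp and Tfap2c, both against the stricter level. In 6 of the 281 an uncalled probe set of Sfn, Dsp or Tfap2c crossed the level without a call; Sfn stood at 0.11 with the 90th percentile, 0.18 with the floor of 16 and 0.35 without replicate 5. In the variance test 0 member probe sets passed in any setting, with 0 to 2 of them at an unadjusted p below 0.05 by limma. The number of all probe sets that passed was 13, and 8 against the stricter level, 38 with a floor of 16 and 0 without the trend and robust options (limma; 507 at an unadjusted p below 0.05); leaving out single replicates gave 8 to 28. The cause of these shifts was not tested. Of the 10 genes most like Trp63, 0 to 4 stayed when single replicates were left out and 8 under quantile normalization, alternatives likewise added after seeing the data. All 10 stayed under median centring, which had to be so. It shifts all probe sets of an array and its level alike, so neither these 10 nor any call above background could differ under it. No paired analysis was possible because all samples belong to 1 group. Signals near or below the level limit what can be said of the keratins, Pkp3 and Sfn.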
